A study of Mus musculus with 3 samples.

Results

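The 10 genes described here are ligands and receptors of the tumor necrosis factor (TNF) superfamily that carry costimulatory signals between lymphocytes and the cells that present antigen to them. They are *Cd40lg*, *Cd40*, *Tnfsf8*, *Tnfrsf8*, *Tnfsf11*, *Tnfrsf4*, *Tnfsf9*, *Tnfrsf9*, *Tnfrsf18* and *Lta*, and they were taken by name from the 32285 gene rows of the deposited matrices, where all 10 were found. The cells were CD45+ immune cells sorted from the sciatic nerve of neuropathic NOD.AireGW/+ mice, in which *Aire*, a gene of thymic tolerance, carries a partial loss-of-function mutation in a strain prone to autoimmunity. These animals acquire an inflammatory neuropathy without induction. All 3 libraries belong to this 1 group, with a single mouse behind library 1, a single mouse behind library 2 and a pool of 2 mice behind library 3. The mice were female, and their age was not given in the sources used here. With no control group analysed here, the levels compare cell types within diseased nerves and carry no information on the effect of disease.

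Most members work as ligand and receptor pairs that sit on different cells. CD40 ligand, encoded by *Cd40lg*, is shown by activated helper T cells and engages CD40 on B cells, dendritic cells and macrophages, which licenses antigen presentation and antibody responses. CD30 ligand (*Tnfsf8*) pairs with CD30 (*Tnfrsf8*), 4-1BB ligand (*Tnfsf9*) with 4-1BB (*Tnfrsf9*), and RANKL (*Tnfsf11*) with RANK (*Tnfrsf11a*), while OX40 (*Tnfrsf4*) and GITR (*Tnfrsf18*) are receptors of T cells whose ligands are encoded by *Tnfsf4* and *Tnfsf18*. Lymphotoxin alpha (*Lta*) is secreted as a homotrimer that binds the TNF receptors, or is held at the membrane by lymphotoxin beta (*Ltb*) and then binds the lymphotoxin beta receptor (*Ltbr*). The receptors recruit TRAF adaptors and activate NF-kB.

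All 10 gene identifiers of the matrices matched the GENCODE annotation of GRCm38 (mm10), where each is a protein-coding gene. *Cd40lg* lay on chromosome X (57212143 to 57224042, + strand), *Cd40* on chromosome 2 (165055627 to 165072948, + strand) and *Tnfsf11* on chromosome 14 (78277445 to 78308043, - strand). Chromosome 4 carried *Tnfsf8* (63831308 to 63861347, - strand), *Tnfrsf8* (145267137 to 145315164, - strand), *Tnfrsf9* (150914562 to 150946102, + strand), *Tnfrsf4* (156013843 to 156016612, + strand) and *Tnfrsf18* (156026164 to 156028895, + strand). *Tnfrsf4* and *Tnfrsf18* stood 9551 bases apart. On chromosome 17, *Tnfsf9* lay at 57105325 to 57107757 (+ strand) and *Lta* at 35203165 to 35205351 (- strand), 1157 bases from *Tnf*.

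Promoter sequence is shown for a pair of ligands that were high in CD4 T cells together (*Tnfsf11* and *Lta*) and for *Tnfrsf4*, the receptor that CD4 and Foxp3 T cells shared. RefSeq (GRCm38.p6) listed promoters for 7 of the 10 members, and *Cd40lg*, *Cd40* and *Tnfsf9* had no entry. Each line gives the 250 bases before the start that RefSeq lists, which for *Tnfsf11* and *Lta* is the gene start given above and for *Tnfrsf4* lies upstream of it, 5′ to 3′ on the strand of the gene, and capitals mark GGAAA or its reverse complement, the core letters that NFAT and ETS factors can bind. The windows were chr14:78308044-78308293, chr17:35205352-35205601 and chr4:156013445-156013694, in that order.
Tnfsf11: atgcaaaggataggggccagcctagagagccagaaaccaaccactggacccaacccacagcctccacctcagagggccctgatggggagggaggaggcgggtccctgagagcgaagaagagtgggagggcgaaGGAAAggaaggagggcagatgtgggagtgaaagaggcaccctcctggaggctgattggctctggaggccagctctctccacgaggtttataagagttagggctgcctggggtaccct
Lta: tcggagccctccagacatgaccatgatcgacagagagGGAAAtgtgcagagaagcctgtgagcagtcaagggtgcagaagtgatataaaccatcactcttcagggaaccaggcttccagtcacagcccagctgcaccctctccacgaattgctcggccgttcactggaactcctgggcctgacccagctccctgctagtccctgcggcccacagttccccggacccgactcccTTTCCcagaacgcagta
Tnfrsf4: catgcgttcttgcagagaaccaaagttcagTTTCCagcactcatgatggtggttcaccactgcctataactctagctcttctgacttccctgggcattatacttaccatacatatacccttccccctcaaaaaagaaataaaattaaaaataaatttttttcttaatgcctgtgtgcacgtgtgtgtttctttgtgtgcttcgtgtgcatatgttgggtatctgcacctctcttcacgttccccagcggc
The letters GGAAA, on either strand, occurred in 55.6% of the 27025 promoters of the same length, so their presence in these windows was common. The AP-1 letters TGANTCA (6.87% of all promoters) and the NF-kB motif (3.75%), searched on both strands, had no match in these 3 windows. A match describes letters and not a bound site.

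Cells were assigned to 8 classes by gates on marker transcripts, none of which was a member. A UMI is 1 captured transcript. T cells had at least 2 UMIs of the CD3 chain genes. Among them, CD4 cells had *Cd4* and no *Cd8a*, *Cd8b1* or *Foxp3* UMI, CD8 cells had *Cd8a* or *Cd8b1* and no *Cd4* or *Foxp3* UMI, and Foxp3 cells had *Foxp3* and no *Cd8a* or *Cd8b1* UMI. Libraries 1 to 3 held 620, 824 and 181 CD4 cells, 908, 923 and 249 CD8 cells, 386, 538 and 109 Foxp3 cells, and 214, 252 and 78 B cells. The gates also held 38, 183 and 15 dendritic cells and 60, 207 and 36 monocytes. Plasma cells (36, 106 and 1) and macrophages (8, 1863 and 3) were not present in all libraries in numbers of 10 or more, so plasma cell values come from libraries 1 and 2 and macrophage values from library 2 alone. Levels are CPM, the UMIs of a gene scaled to the total UMIs of its class and library with TMM factors. They are compared between classes for each gene, and levels of different genes are not ranked.

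The libraries held 3399733 to 55120460 UMIs in 1533 to 8311 barcodes, and library 3 was the shallowest, with a median of 1726 UMIs a cell against 3956 and 4632.5 in the kept cells of libraries 1 and 2. Library pairs shared 7 to 36 cell barcodes, and 0 of them had identical counts. *Trac*, the T cell receptor alpha constant gene, averaged 218 to 245 CPM in the 3 T cell classes and 1.53 to 4.54 CPM in the others, and the B cell genes *Pax5*, *Ebf1* and *Fcmr* were highest in B cells. The CD4 gate can hold regulatory T cells whose *Foxp3* was missed, since *Il2ra* averaged 49.99 CPM in CD4 cells against 185 in Foxp3 cells and *Ikzf2* 138 against 446. Both markers listed for plasmacytoid dendritic cells, *Siglech* and *Ccr9*, were found in T cell classes, with a summed level of 0 to 124 CPM in CD4, 4.48 to 42.0 CPM in CD8 and 0 to 81.2 CPM in Foxp3 cells of the 3 libraries. The part of such cells in the T cell levels was not tested.

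**Figure D1:**
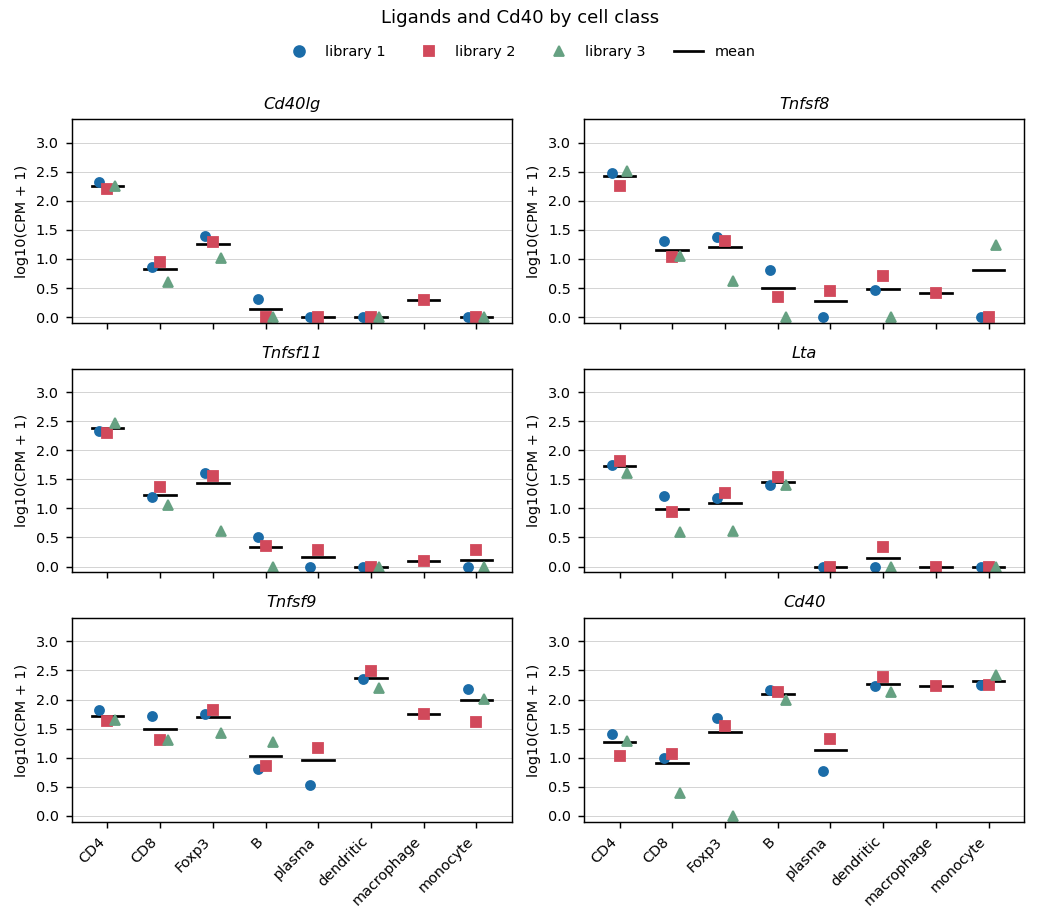
Levels of the 5 ligands and of Cd40 in 8 cell classes, as log10(CPM + 1), with 1 point per library and a bar at the mean. Cd40lg, Tnfsf8 and Tnfsf11 were highest in CD4 cells of every library, Tnfsf9 was highest in dendritic cells, and Cd40 was high in B cells, dendritic cells, macrophages and monocytes.

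To ask which side of the T cell synapse carries each gene, antigen-presenting cells (B cells, dendritic cells, macrophages and monocytes) were compared with the 3 T cell classes. *Cd40* was the member of the presenting side and 8 members were lower there than in T cells, namely *Cd40lg*, *Tnfsf8*, *Tnfsf11*, *Lta*, *Tnfrsf4*, *Tnfrsf18*, *Tnfrsf9* and *Tnfrsf8*. *Tnfsf9* was the member that did not pass. The test was edgeR's quasi-likelihood test with Benjamini-Hochberg adjustment over the 10884 genes tested, as in all comparisons between classes below. It called 52.4% of all genes here, 16.4% higher and 35.9% lower, so that 9 of 10 members stand against a high background. With library-size scaling and no TMM the same numbers of members were higher and lower, and 11.8% of all genes were higher and 48.7% lower. The median log2 difference was -5.00 over the members and -0.21 over all genes.

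*Cd40lg* was almost confined to T cells in these counts. In CD4 cells it stood at 209, 158 and 178 CPM in libraries 1 to 3 (608, 545 and 77 UMIs), in Foxp3 cells at 23.4, 18.8 and 9.43 CPM, and in CD8 cells at 6.29, 7.71 and 2.99 CPM. This order was the same in 3 of 3 libraries, although in library 3 the 95% counting intervals of Foxp3 cells (1.95 to 27.6 CPM, 3 UMIs) and CD8 cells (0.362 to 10.8 CPM, 2 UMIs) overlapped. Of the 1428 *Cd40lg* UMIs in gated cells 99.2% lay in T cells and 12 in antigen-presenting cells, 11 of which were among the 1863 macrophages of library 2. Dendritic cells, monocytes and plasma cells had 0 UMIs, which allows up to 3 in each class. Each step of the order CD4, Foxp3, CD8 and macrophage passed the test (adjusted p = 9.03e-08, 0.000571 and 0.000134 by edgeR), and no step below macrophages did. Over all genes, 13.6% passed between Foxp3 and CD8 cells and 51.7% between CD8 cells and macrophages.

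Its receptor *Cd40* had the opposite distribution. It stood at 146, 133 and 95.9 CPM in B cells, at 173, 247 and 134 CPM in dendritic cells, at 176, 177 and 267 CPM in monocytes and at 173 CPM in the macrophages of library 2. No step between neighbours in the order of these 4 means passed the test (adjusted p 0.51 to 0.95 by edgeR). B cells and dendritic cells are not neighbours in that order, and *Cd40* was not called between them in the main fit. It was lower in B cells without the filter on low counts (log2 difference -0.706, adjusted p = 0.0076 by edgeR) and under the stricter gate (-0.939, adjusted p = 0.0444). T cells had less, at 9.59 to 24.1 CPM in CD4 cells, 1.49 to 10.7 in CD8 cells and 0 to 46.5 in Foxp3 cells, and the mean over presenting classes, 172 CPM, exceeded that of T cells, 17.1 CPM (log2 difference 3.33 ± 0.22 SE, adjusted p = 4.46e-11 by edgeR, higher in 3 of 3 libraries). Plasma cells, the antibody-secreting end of the B lineage, had 4.88 and 19.9 CPM in libraries 1 and 2 and were below B cells in both (log2 difference -3.14 ± 0.54 SE, adjusted p = 9.15e-05 by edgeR).

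*Tnfsf9*, the 4-1BB ligand, was highest in dendritic cells. It stood at 226, 309 and 157 CPM in dendritic cells, at 152, 40.7 and 100.3 CPM in monocytes and at 55.7 CPM in macrophages. Monocyte values thus spread widely between libraries, and all 3 lay below the dendritic cells of their own library (log2 difference of dendritic cells over monocytes 1.62 ± 0.39 SE, adjusted p = 0.0044 by edgeR, where 18.8% of all genes passed). T cells had 42.4 to 65.8 CPM in CD4, 25.2 to 65.9 in Foxp3 and 19.2 to 50.7 in CD8 cells. B cells were low, at 5.40, 6.27 and 18.0 CPM, and below dendritic cells in 3 of 3 libraries (log2 difference -5.29 ± 0.56 SE, adjusted p = 2.48e-07 by edgeR). The comparison of B cells with dendritic cells called 2 members, against 36.0% of all genes (18.8% higher, 17.2% lower), and the other was *Lta*, at 23.8, 33.9 and 24.0 CPM in B cells with 2 UMIs in all dendritic cells. Without library 1, *Tnfrsf4*, *Tnfrsf9* and *Tnfrsf18* also passed and were lower in B cells. Their log2 differences were -2.87, -3.02 and -1.72 (adjusted p = 0.000161, 0.0227 and 0.00191 by edgeR). The share of all genes that passed in that fit is not given here.

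*Lta* was highest in CD4 T cells and next in B cells. CD4 cells had 53.7, 64.0 and 39.2 CPM, Foxp3 cells 14.1, 17.2 and 3.14 CPM, and CD8 cells 15.2, 7.71 and 2.99 CPM. The order CD4, B, Foxp3 passed the test at each step (adjusted p = 0.0156 and 0.0491 by edgeR, where 26.9% and 30.3% of all genes passed), and Foxp3 and CD8 cells were not separated (adjusted p = 0.43). Plasma cells, monocytes and the macrophages of library 2 had 0 UMIs, and the loss from B cells to plasma cells was called (adjusted p = 4.21e-05) but not after the top 5% of cells by UMIs were left out (0.1001) or cells were thinned to 1000 UMIs (0.133). *Lta* and *Cd40* were the 2 members called between plasma and B cells, against 36.3% of all genes (17.7% lower). This count rests on the scaling, since plasma cells had TMM factors of 0.407 and 0.424. With library-size scaling and no TMM, *Tnfrsf4* and *Tnfrsf18* were lower as well, making 4, but the median of all genes then shifted from -0.07 to -1.39 on the log2 scale and the share of all genes lower in plasma cells from 17.7% to 58.7%.

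To describe how the members divide among helper, cytotoxic and regulatory T cells, CD8 and Foxp3 cells were each compared with CD4 cells. The 2 comparisons share the CD4 cells. In CD8 cells 6 of 10 members were lower and 0 higher, against 4.95% of all genes lower and 7.63% changed in either direction. In Foxp3 cells 4 members were lower and 1 was higher, against 2.80% of all genes changed, 1.41% higher and 1.39% lower. The 4 ligands *Cd40lg*, *Tnfsf8*, *Tnfsf11* and *Lta* were lower in both. The median over the members was -1.97 for CD8 cells and 0.33 for Foxp3 cells on the log2 scale, beside -0.01 and 0.00 over all genes.

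The ligands of CD30 and RANK followed *Cd40lg*. *Tnfsf8* stood at 298, 176 and 321 CPM in CD4 cells, at 19.2, 9.81 and 10.5 CPM in CD8 cells, and at 22.6, 19.4 and 3.14 CPM in Foxp3 cells. *Tnfsf11* stood at 216, 197 and 296 CPM in CD4 cells, at 14.4, 22.2 and 10.5 CPM in CD8 cells, and at 39.2, 35.7 and 3.14 CPM in Foxp3 cells. For both genes every CD4 value lay above every value of the other T cells, and all other classes had at most 16.7 CPM of *Tnfsf8* and 2.16 CPM of *Tnfsf11*. The log2 differences from CD4 to CD8 cells were -4.81 ± 0.22 (SE) for *Cd40lg*, -4.17 ± 0.27 for *Tnfsf8*, -3.73 ± 0.27 for *Tnfsf11* and -2.41 ± 0.26 for *Lta* (adjusted p 5.99e-10 to 4.96e-06 by edgeR, each lower in 3 of 3 libraries). From CD4 to Foxp3 cells they were -3.22 ± 0.20, -3.66 ± 0.28, -2.76 ± 0.26 and -1.98 ± 0.27 (adjusted p 4.01e-08 to 0.000194).

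**Figure D2:**
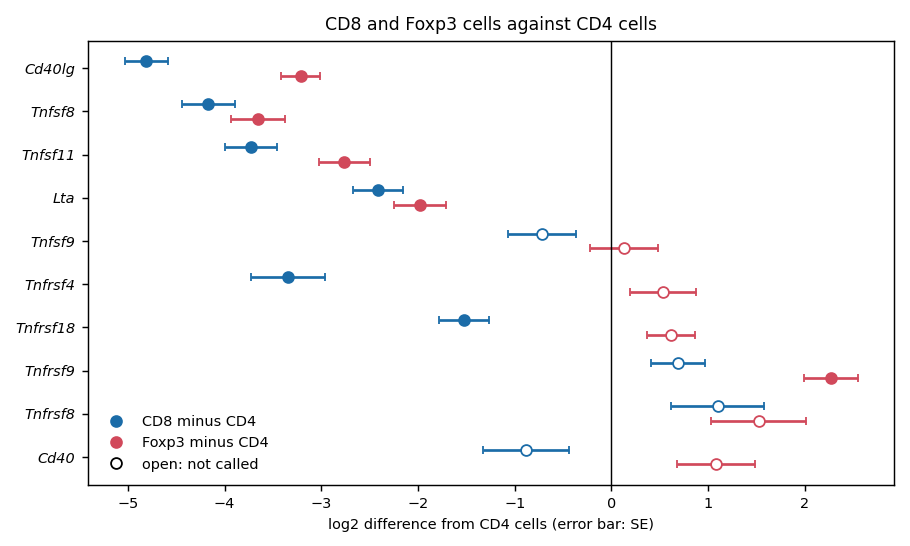
Log2 differences of CD8 cells (blue) and Foxp3 cells (red) from CD4 cells for the 10 members, with the standard error of the fit, filled where edgeR's adjusted p was under 0.05. Cd40lg, Tnfsf8, Tnfsf11 and Lta lay to the left in both comparisons, Tnfrsf4 and Tnfrsf18 to the left in CD8 cells only among called points, and Tnfrsf9 to the right in Foxp3 cells.

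Among the receptors, OX40 and GITR were shared by CD4 and Foxp3 cells. *Tnfrsf4* stood at 877, 713 and 1051 CPM in CD4 cells, at 1496, 959.7 and 1396 CPM in Foxp3 cells, and at 92.4, 72.6 and 94.1 CPM in CD8 cells. *Tnfrsf18* stood at 561, 362 and 540.3 CPM in CD4 cells, at 887, 529 and 829.9 CPM in Foxp3 cells, and at 178, 143 and 182.3 CPM in CD8 cells. CD8 cells lay below CD4 cells in every library (log2 difference -3.34 ± 0.38 SE for *Tnfrsf4*, adjusted p = 3.48e-06, and -1.53 ± 0.26 for *Tnfrsf18*, adjusted p = 0.000363, both by edgeR). Foxp3 cells lay above CD4 cells in 3 of 3 libraries for both genes, but by 0.54 ± 0.34 and 0.61 ± 0.25 on the log2 scale, which did not pass (adjusted p = 0.60 and 0.27 by edgeR). For both genes this depended on the setting. *Tnfrsf18* passed without the filter on low counts (adjusted p = 0.0285 by edgeR) and without the top 5% of cells by UMIs (0.0429), as did *Tnfrsf8* and *Cd40*. *Tnfrsf4* passed under neither, but it passed with cells thinned to 1000 UMIs (log2 difference 0.685, adjusted p = 0.0227 by edgeR). After each cell was thinned to 1000 UMIs, 69.3% ± 8.1 (SD, n = 3 libraries) of Foxp3 cells and 54.1% ± 4.9 of CD4 cells had a *Tnfrsf4* UMI, against 6.05% ± 1.02 of CD8 cells and 0.938% ± 1.02 of B cells.

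*Tnfrsf9*, encoding 4-1BB, marked the Foxp3 class. Foxp3 cells had 432, 239.5 and 431 CPM, CD8 cells 157, 117 and 56.8 CPM, and CD4 cells 102, 40.1 and 104 CPM. All 3 Foxp3 values exceeded every other value, and the difference from CD4 cells was 2.27 ± 0.28 on the log2 scale (adjusted p = 2.75e-05 by edgeR, higher in 3 of 3 libraries). CD8 and CD4 cells were not separated in the main fit (log2 difference 0.69 ± 0.28, adjusted p = 0.16 by edgeR), and their order turned in library 3. This depended on the setting. CD8 cells were higher without library 3 (adjusted p = 0.0192 by edgeR), without the filter on low counts (0.00513) and under the stricter gate (0.0485). A *Tnfrsf9* UMI was seen in 27.7% ± 6.9 (SD, n = 3 libraries) of thinned Foxp3 cells, 7.78% ± 4.97 of CD8 cells and 6.098% ± 2.44 of CD4 cells, beside 0.168% ± 0.292 of B cells. *Tnfrsf8*, encoding CD30, was scarce, with 172 UMIs in all gated cells and at most 10.2 CPM in a class held by all libraries.

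**Figure D3:**
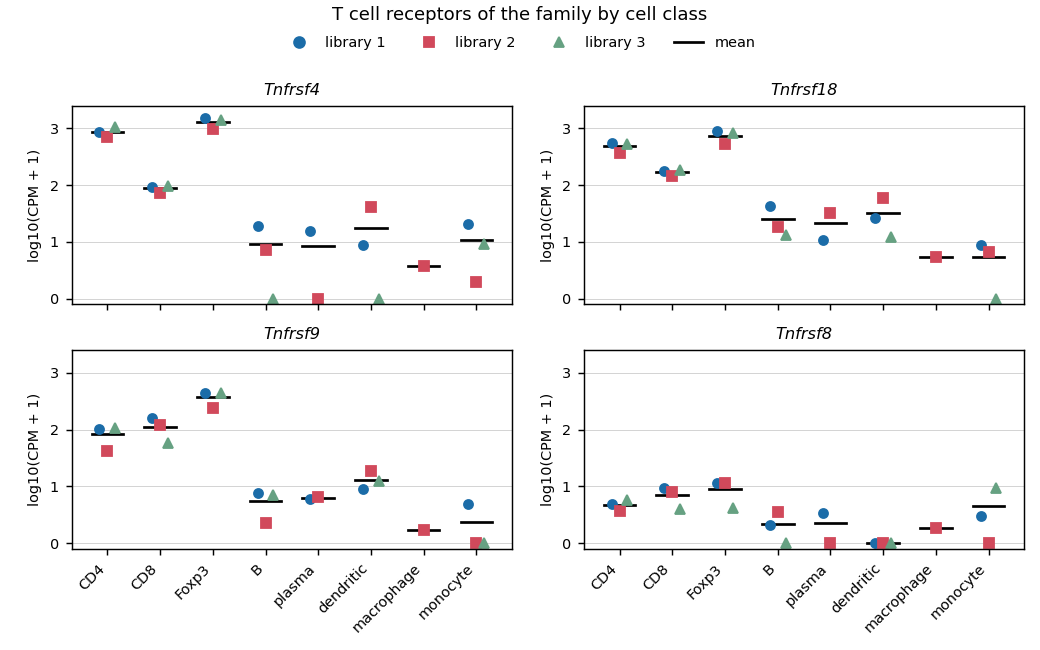
Levels of 4 receptors in 8 cell classes, as log10(CPM + 1), with 1 point per library and a bar at the mean. Tnfrsf4 and Tnfrsf18 were high in CD4 and Foxp3 cells and lower in CD8 cells, Tnfrsf9 was highest in Foxp3 cells, and Tnfrsf8 stayed low in all classes.

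Shares of CD4 cells with a UMI were compared for the ligands. After thinning to 1000 UMIs, 17.01% ± 3.32 (SD, n = 3 libraries) of CD4 cells had a *Cd40lg* UMI, against 33.5% ± 6.3 without thinning. The thinned share was 2.13% ± 0.98 in Foxp3 cells, 0.583% ± 0.516 in CD8 cells and 0 in B cells and dendritic cells. For *Tnfsf8* the thinned share of CD4 cells was 21.3% ± 5.8 and for *Tnfsf11* 16.6% ± 2.7, beside 0.469% ± 0.509 and 0.301% ± 0.266 of B cells. For *Lta* the thinned shares, 5.13% ± 2.31 of CD4 cells and 3.87% ± 1.81 of B cells, did not keep the order of the levels in each library. In library 3 they were 2.55% of 157 CD4 cells and 5.63% of 71 B cells, with 4 positive cells in each class. *Cd40lg* and *Tnfsf8* UMIs were found together in 7.18%, 2.99% and 6.37% of the thinned CD4 cells of libraries 1 to 3, where independent detection would give 5.35%, 2.05% and 3.83%. *Tnfsf8* and *Tnfsf11* were found together in 7.94%, 4.36% and 5.10%, where independence would give 5.10%, 2.09% and 3.69%. Both pairs were thus seen together more often than independence gives in 3 of 3 libraries, without a test. This was not particular to them, since every other pair taken in CD4 cells did the same. Those were *Cd40lg* with *Tnfsf11*, *Cd40lg* with *Lta*, and *Tnfrsf4* with *Tnfrsf18*. The last was found in 33.5%, 21.6% and 29.9%, where independence would give 28.6%, 17.2% and 23.7%.

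Because the study centred on IL-21-producing CD4 T cells, CD4 cells with and without an *Il21* UMI were compared. *Il21* itself was the gate. Libraries 1 and 2 held 86 and 130 such cells and library 3 held 8, too few for a sum, so the differences rest on libraries 1 and 2. The helper ligands were higher in the cells with *Il21*. *Cd40lg* stood at 354 against 199.5 CPM in library 1 and at 266 against 171 CPM in library 2. *Tnfsf8* stood at 578 against 267 CPM and at 364 against 171 CPM. *Tnfsf11* stood at 388 CPM (192 UMIs) in the 86 cells with *Il21* of library 1, where the others had 434 UMIs in 534 cells, and at 392 against 195 CPM in library 2. *Lta* stood at 121 against 44.2 and at 142 against 59.1 CPM. For these 4 ligands the 95% counting intervals did not overlap in either library.

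In the fit, 6 of the 9 members tested were higher and 1 was lower, against 2.51% and 2.11% of the 7141 genes tested (4.62% in either direction), and *Tnfrsf8* was too low to be tested. The log2 differences were 1.13 ± 0.12 (SE) for *Tnfsf8*, 1.01 ± 0.12 for *Tnfsf11*, 1.38 ± 0.21 for *Lta*, 0.76 ± 0.13 for *Cd40lg*, 0.89 ± 0.23 for *Tnfsf9* and 0.54 ± 0.09 for *Tnfrsf4*. *Tnfrsf9* was lower, at 64.7 against 122 CPM and at 32.4 against 52.8 CPM (log2 difference -0.79 ± 0.24, adjusted p = 0.0222 by edgeR). *Tnfrsf18* and *Cd40* did not pass. The calls changed with the setting. Apart from sums of at least 5 cells, no setting below has a share of all genes beside it. A change in the calls of members there cannot be told apart from a change over all genes. By DESeq2 *Tnfsf8* and *Tnfsf11* passed, and the others tested did not, among them *Tnfrsf4* (adjusted p = 0.0612), *Lta* (0.21) and *Cd40lg* (0.37). No member passed in the fit without the library block. Sums of at least 5 cells bring in library 3 and were added after the cell numbers were seen. They called 4 of the 9, namely *Tnfsf8*, *Tnfsf11*, *Lta* and *Cd40lg*, against 1.69% of all genes. Cells with an *Il21* UMI were deeper, with medians of 3787 against 2918.5 UMIs in library 1 and 3600 against 2472 in library 2, and with every cell thinned to 1000 UMIs all 7 calls remained. Leaving library 3 out of the fit altogether left 5, since *Tnfsf9* (adjusted p = 0.0750) and *Tnfrsf9* (0.108) no longer passed. Both genes also failed to pass with library-size scaling, under the stricter gate and without the top 5% of cells by UMIs (adjusted p 0.062 to 0.50 for *Tnfsf9* and 0.0684 to 0.19 for *Tnfrsf9* by edgeR).

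**Figure D4:**
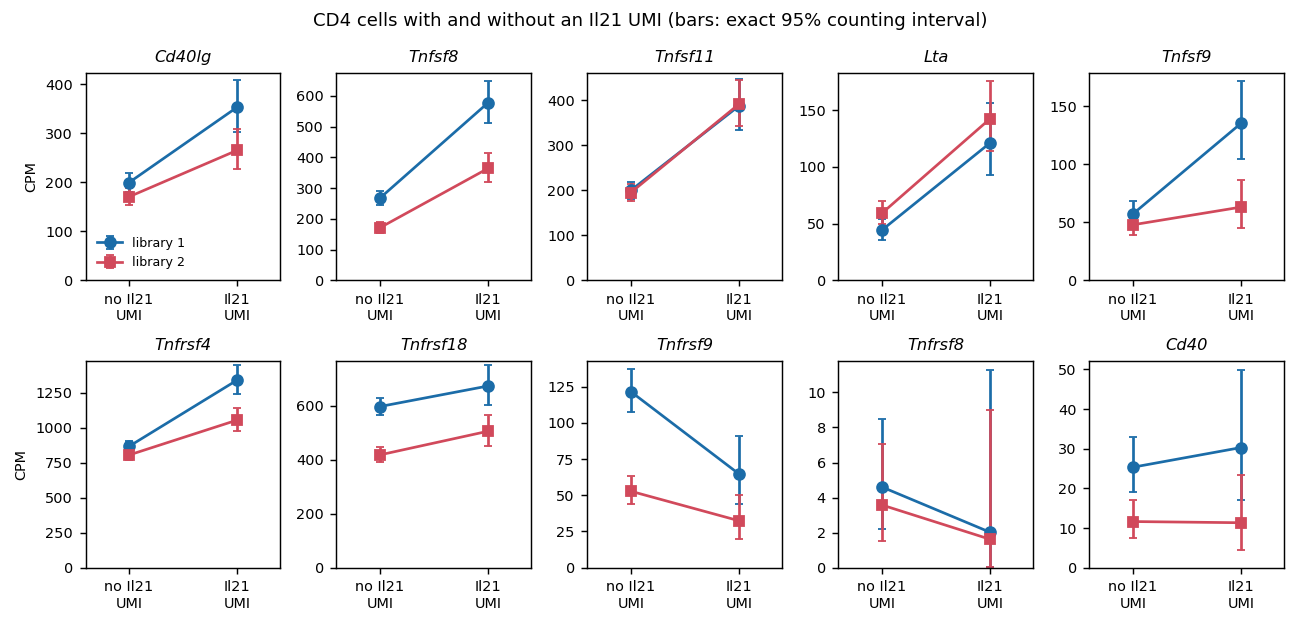
Levels in CPM of the 10 members in CD4 cells with and without an Il21 UMI, in libraries 1 and 2, with exact 95% counting intervals. Among the members called in the main fit, lines rise in both libraries for Cd40lg, Tnfsf8, Tnfsf11, Lta, Tnfsf9 and Tnfrsf4 and fall for Tnfrsf9. The Tnfsf9 intervals overlap in library 2. Tnfrsf18, which was not called, also rises in both, and Tnfrsf8, which was not tested, falls in both.

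Within dendritic cells, mature cells had higher levels of 5 members than the other dendritic cells in library 2. Mature cells had a sum of at least 3 UMIs over *Fscn1*, *Ccr7* and *Ccl22*, genes of dendritic cells that migrate after activation, and numbered 6, 56 and 6. In library 2 *Cd40* stood at 823 CPM in 56 mature cells against 124 CPM in 127 other dendritic cells, a log2 ratio of 2.73 (95% counting interval 2.44 to 3.03), and *Tnfsf9* at 945 against 180.1 CPM (2.39, 2.14 to 2.65). A single mature cell held 55 of the 283 *Cd40* UMIs and a single mature cell 72 of the 325 *Tnfsf9* UMIs, and after thinning to 1000 UMIs the log2 ratios were smaller, at 1.69 and 1.49. High *Tnfsf9* was not particular to mature cells. In library 2, 16 other dendritic cells with a *Cd209a* UMI and none of *Xcr1* or *Clec9a* held 108 of the 209 *Tnfsf9* UMIs of the other group, which is 1180 CPM without TMM scaling, and 86 with *Xcr1* or *Clec9a* had 71.0 CPM on that scale. The same *Cd209a* cells had 229 CPM of *Cd40* and the *Xcr1* or *Clec9a* cells 74.9 CPM. *Cd40* was also higher in library 1, at 296 against 174 CPM, and in library 3, at 222 against 85.9 CPM. *Tnfsf9* stood at 206 against 265 CPM in library 1 and at 190.3 against 138 CPM in library 3. The intervals of the log2 ratio included 0 for *Tnfsf9* in both of these libraries, and for *Cd40* in library 3 (-0.50 to 3.37) but not in library 1 (0.01 to 1.47).

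Only library 2 reached 10 mature cells, so the planned fit had no residual degrees of freedom. With sums of at least 5 cells, an alternative chosen after the cell numbers were seen, 2 members were high enough to be tested and both were higher in mature cells, against 8.70% of all genes called (6.29% higher). *Cd40* differed by 1.96 ± 0.36 on the log2 scale (adjusted p = 0.00124 by edgeR, higher in 3 of 3 libraries) and *Tnfsf9* by 1.31 ± 0.40 (adjusted p = 0.0493, higher in 2 of 3).

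Receptors that T cells are known for were also found in the mature dendritic cells of library 2. *Tnfrsf4* had 70 UMIs in 56 mature cells and 1 UMI in 127 others, which is 204 against 0.862 CPM, and was seen in 20 mature cells (35.7%, exact 95% interval 23.4 to 49.6) with at most 14 UMIs in a cell. *Tnfrsf9* had 28 UMIs in 15 mature cells against 2 UMIs in the others, or 81.4 against 1.72 CPM. *Tnfrsf18* stood at 128 against 49.1 CPM, a log2 ratio of 1.38 (95% counting interval 0.78 to 1.97). *Trac* and *Foxp3* had 0 UMIs in these 56 cells, which allows up to 3 UMIs of each, and in the Foxp3 cells of the same library *Trac* had 610 UMIs beside 3013 of *Tnfrsf4*. The dendritic cell gate allows at most 1 UMI of the CD3 genes and so selects against cells with T cell RNA, whose part in these receptor UMIs was not tested. The 20 mature cells with a *Tnfrsf4* UMI held 37 UMIs of *Il2ra*, encoding the interleukin-2 receptor alpha chain, of 48 in all 56 mature cells. The 6 mature cells of library 1 held 1 *Tnfrsf4* UMI and those of library 3 held 0, and the exact 95% upper limits of their shares were 64.1% and 45.9%.

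**Figure D5:**
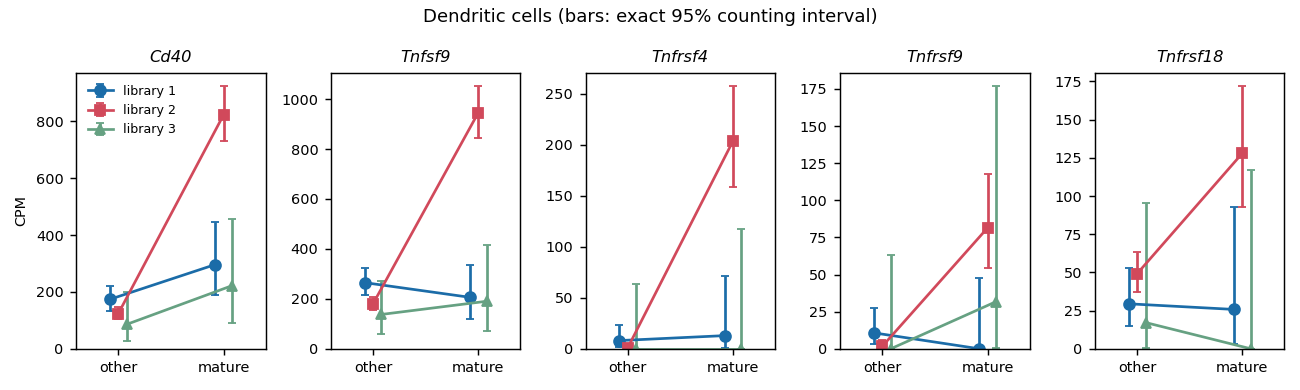
Levels in CPM of 5 members in mature and other dendritic cells of 3 libraries, with exact 95% counting intervals. Cd40 is higher in mature cells of every library, and the large differences in Tnfsf9, Tnfrsf4, Tnfrsf9 and Tnfrsf18 are those of library 2, which held 56 mature cells against 6 in each of the others.

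Dendritic cells as a whole were compared with macrophages and monocytes with macrophages. Against the macrophages of library 2, dendritic cells had more *Tnfsf9* (log2 difference 2.09 ± 0.45 SE, adjusted p = 0.00148 by edgeR), *Tnfrsf9*, *Tnfrsf4* and *Tnfrsf18*, with means of 12.1, 16.3 and 31.7 CPM against 0.680, 2.81 and 4.51 CPM. These were 4 of 10 members, against 24.5% of all genes called. The receptor levels were uneven between libraries and within the class. *Tnfrsf4* stood at 7.85, 41.0 and 0 CPM in dendritic cells of libraries 1 to 3, and in library 2 the 56 mature cells held 70 of its 71 UMIs and 28 of the 30 of *Tnfrsf9*. The 127 other dendritic cells held 1 *Tnfrsf4* UMI (0.862 CPM), and the 95% counting interval of this level included the 2.81 CPM of the macrophages. These other dendritic cells and the macrophages were thus not separated for *Tnfrsf4*. With library-size scaling and no TMM the same number of members was called, and 16.9% of all genes were higher and 9.56% lower, against 12.4% and 12.2% with TMM. Without the library block *Tnfsf9* and *Tnfrsf4* did not pass, and neither passed by DESeq2, where *Lta* did. Between monocytes and macrophages edgeR called 0 members, against 5.09% of all genes, with 0 at an unadjusted p under 0.05 and 0 by DESeq2. Of all genes 2.24% were higher and 2.85% lower, and with library-size scaling 3.67% and 1.63%.

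The binding partners were fixed beside the members, so that both sides of each pair could be read. RANK (*Tnfrsf11a*), the receptor of the CD4 ligand *Tnfsf11*, lay in myeloid cells, at 15.7, 27.2 and 22.4 CPM in dendritic cells, 58.5, 48.3 and 0 CPM in monocytes and 29.5 CPM in macrophages, with at most 3.19 CPM in T cells and 0 UMIs in B cells. Its decoy receptor *Tnfrsf11b* had 0 UMIs in all classes. The OX40 ligand *Tnfsf4* was low, at most 5.78 CPM in any class, and 9 of its UMIs in library 2 lay in the 56 mature dendritic cells against 1 in the 127 others. The GITR ligand *Tnfsf18* had 3 UMIs in all classes. For 2 abundant receptors of T cells, the ligand transcript was thus scarce in the gated classes taken whole. The gates held 59.0%, 59.3% and 43.8% of the kept cells of libraries 1 to 3. Neither the other CD45+ cells nor cells without CD45 were examined for these ligands.

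The receptors of lymphotoxin and TNF were spread more widely. *Ltbr* was a myeloid gene, at 41.2, 45.7 and 11.2 CPM in dendritic cells, 64.4, 74.8 and 58.5 CPM in monocytes and 0 UMIs in B cells. *Ltb* stood at 291 to 447 CPM in CD4 cells, 312 to 348 in CD8 cells, 417 to 462 in Foxp3 cells and 216 to 616 in B cells, and it was lower in presenting cells as a group (log2 difference -3.53 ± 0.17 SE, adjusted p = 3.22e-13 by edgeR). *Tnf* was lower in CD8 cells (log2 difference -1.05 ± 0.27, adjusted p = 0.0159 by edgeR) and in Foxp3 cells (-1.25 ± 0.30, adjusted p = 0.0204) than in CD4 cells, and higher with *Il21* (0.79 ± 0.21, adjusted p = 0.00574). *Tnfrsf1a* was highest in monocytes, at 117 to 187 CPM, and *Tnfrsf1b* stood at 36.0 to 252 CPM in all classes but plasma cells, where it was at 2.44 and 10.8 CPM.

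Of the 27 other genes of the superfamily, 20 were tested in the class fit. Between CD8 and CD4 cells 2 were higher and 3 lower, against 2.67% and 4.95% of all genes. The largest changes were in *Tnfrsf25* (3.61 against 18.5 CPM), *Tnfrsf10b* (1.06 against 4.44 CPM) and *Tnfrsf13b* (6.83 against 27.5 CPM). Between Foxp3 and CD4 cells *Cd27*, the receptor of CD70, was higher (log2 difference 0.79 ± 0.20 SE, adjusted p = 0.0392 by edgeR) and *Fasl* was lower (-2.10 ± 0.24, adjusted p = 9.94e-06). Plasma cells had 112 UMIs of *Tnfrsf17*, encoding the plasma cell receptor BCMA, and B cells had 0. *Tnfsf13*, encoding the B lineage survival ligand APRIL, stood at 208 CPM in the macrophages of library 2 against 3.35 CPM in dendritic cells.

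Of the 23 genes of receptor signalling, all were tested between classes. In CD8 cells 7 were lower than in CD4 cells and 0 higher, against 4.95% and 2.67% of all genes. They were led by *Nfkbia*, an NF-kB inhibitor and target (log2 difference -1.20 ± 0.28 SE, adjusted p = 0.00771 by edgeR), *Rel* (-0.97 ± 0.20) and *Nfkb1* (-0.88 ± 0.21). The median of the list was -0.35 beside -0.01 over all genes. In Foxp3 cells 1 was higher, *Birc3* (0.88 ± 0.22, adjusted p = 0.0288), where 1.41% of all genes were higher. In CD4 cells with *Il21*, 3 were higher and 1 lower, against 2.51% and 2.11% of all genes. The 3 largest changes were in *Bcl2l1*, a survival gene (1.16 ± 0.30), *Nfkbia* (0.67 ± 0.09) and *Rel* (0.49 ± 0.14). In mature dendritic cells, with sums of at least 5 cells, 9 of the 13 genes tested were higher and 0 lower, where 6.29% of all genes were higher. They were led by *Birc2* (3.31 ± 0.49), *Relb* (2.54 ± 0.33) and *Traf1* (2.46 ± 0.25). The median of the list was 1.43 beside -0.07 over all genes.

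The genes most like each member were found by Pearson's correlation of log2(CPM + 1) over the 21 sums of class and library, among 7529 genes, as a description only, since the sums of a library share its mice and depth. *Tnfsf11* was the most like *Cd40lg* (r = 0.97), followed by *Il21* (0.94) and *Spock2* (0.94), and *Il21* was among the 3 most like *Tnfsf8* (0.91) and *Tnfsf11* (0.95) as well. *Tnfrsf9* and *Tnfrsf18* were each other's most like gene (0.94). *Tnfrsf4* was most like *Il2ra* (0.94), *Trav5-4* (0.93) and *Peli1* (0.93). *Cd40* was most like *Stx7* (0.96), *Cd83* (0.95) and *Ly86* (0.95), *Tnfsf9* like *Alox5ap*, *Spag9* and *Pak1* (0.88 to 0.89), *Lta* like *Prpf4*, *S1pr1* and *Stk17b* (0.88 to 0.89), and *Tnfrsf8* like *Atp2b4*, *Ncor1* and *Cdk6* (0.80 to 0.81).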

How the data were processed

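The data were 10x Genomics 5′ gene expression libraries of CD45+ sciatic nerve cells from 3 samples. According to the file headers, Cell Ranger 5.0.1 (library 1) and 6.1.2 (libraries 2 and 3) made the matrices, and the labels give mm10 as the build. The deposited values are UMI counts, not normalized. Library 1 came without a gene list among the files used here. In the order of the identical lists of the other libraries its gene totals had a Spearman correlation of 0.950 and 0.929 with theirs, against 0.355 and 0.324 when shifted by 1 row, across genes.

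A cell was kept if it had 300 UMIs or more, 5000 genes or fewer and at most 20% of its UMIs in mitochondrial genes, which left 3848, 8256 and 1533 cells. Gates on marker UMIs then assigned 2270, 4896 and 672 of them. No doublet caller was run. The T cell gates limit UMIs of B cell and macrophage markers, and the B cell gate limits those of CD3 and macrophage markers. Neither limits markers of dendritic cells or monocytes. Doublets with such cells and doublets within a class can remain, and their part in the levels was not tested. UMIs were summed per class and library, sums of fewer than 10 cells were left out, and the 21 sums were fitted with edgeR 4.0.16 (quasi-likelihood test, TMM, filterByExpr, library as a block, R 4.3.3), with Benjamini-Hochberg adjustment over all genes and calls at an adjusted p under 0.05. The block was used because classes of a library come from the same mice. Tests compare cell classes within libraries, and p-values measure how far the class differences vary between these libraries, 1 of them a pool. Macrophages had a sum in library 2 alone, so their spread between libraries was not measured. The fit of the split by *Il21* had few residual degrees of freedom, since library 3 entered only with cells without *Il21*. The script was tested on simulated data. Alternatives, among them DESeq2 1.42.0, are given in the closing section.

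The members, gene lists and tests were chosen with earlier results of these data known. All members and their binding partners were named, and the 3 largest called changes of each further list. Free RNA can add UMIs to every class. Shares of cells were taken after thinning each cell to 1000 UMIs, with shallower cells left out. Exact 95% intervals cover counting error only. A ± gives the SD over libraries or, where stated, the SE of the fit.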

Additional observations from a re-analysis of the deposited data

How the results depend on the processing

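The number of members called stayed within 1.5 times of the reported one for CD8 against CD4 cells, for presenting against T cells and for monocytes against macrophages under every alternative that could be fitted. Within that range, *Tnfrsf9* (higher in CD8 cells) and *Tnfsf9* and *Cd40* (lower) also passed between CD8 and CD4 cells without the filter on low counts. Foxp3 against CD4 cells gave 8 in place of 5 without the filter on low counts and without the top 5% of cells by UMIs. Dendritic cells against macrophages lost *Tnfsf9* and *Tnfrsf4* without the replicate block and with DESeq2. B against dendritic cells gave 6 in place of 2 without the filter, 5 without the top 5% of cells, 4 under the stricter gate, and 2 to 5 when each library was left out in turn. The count of 5 came without library 1, where *Tnfrsf4*, *Tnfrsf9* and *Tnfrsf18* also passed. Plasma against B cells gave 4 in place of 2 with library-size scaling and no TMM, and 1 without the top 5% of cells or with thinning to 1000 UMIs. The split by *Il21* gave 2 with DESeq2, 0 without the replicate block and 4 with sums of at least 5 cells, in place of 7. The share of all genes called is given here for some settings only, so the counts of the others are not read as a result about the members. The cause of these changes was not tested.

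In mature dendritic cells of library 2 the log2 ratio of *Cd40* was 1.69 after thinning, in place of 2.73. The fit of sums of at least 5 cells, which gave 1.96, took in all libraries. The share of CD4 cells with a *Cd40lg* UMI was 10.6% at 500 UMIs and 33.5% without thinning, in place of 17.01%. No result that was called changed direction under the alternatives run. Without the block, *Lta* between Foxp3 and CD4 cells also lost its call (adjusted p = 0.0562). The comparison of mature cells could be fitted only without the block and with sums of at least 5 cells, the split by *Il21* could not be fitted without library 1 or 2, and both comparisons with macrophages had no sum without library 2. Library 3, with 9.43 CPM resting on 3 *Cd40lg* UMIs in Foxp3 cells, sets the limit of depth.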
